A study of Mus musculus with 32 samples.

Results

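The 41 genes described here encode the conjugation enzymes of the mouse liver: 19 glutathione S-transferases (GST), 15 UDP-glycosyltransferases (UGT) and 7 sulfotransferases (SULT). They are all the genes of the authors' table of 13432 log2 expression values whose symbol begins with Gst, Ugt or Sult followed by a letter or digit, with Gstcd left out. Their read counts came from a count table of 55471 genes by the same Ensembl identifiers. All 41 had enough reads to be tested, among 14456 tested genes in all, and all 41 are annotated as protein-coding.

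Conjugation makes fat-soluble drugs, hormones, pigments and reactive metabolites soluble in water, so that they can leave the hepatocyte in bile or blood. GSTs attach glutathione to electrophiles, UGTs attach a sugar, usually glucuronic acid from UDP-glucuronic acid, at the membrane of the endoplasmic reticulum, and SULTs attach a sulfonate group from the activated sulfate donor PAPS in the cytosol. The liver is rich in all 3 families, and many of their members respond to xenobiotic receptors such as CAR and PXR and to factors driven by the circadian clock.

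Polyadenylated RNA was sequenced from the livers of 32 male C3H/HeNCrl mice, all on a high fat diet and all without a stated genetic change. The animals lived in a short light (SL) or a long light (LL) photoperiod, and 4 mice of each were taken at zeitgeber time (ZT) 0, 6, 12 and 18 h. This gives 8 groups: SL at ZT0, ZT6, ZT12 and ZT18, and LL at ZT0, ZT6, ZT12 and ZT18. The sources used here do not give the hours of light in each photoperiod, the age of the mice or the event that defines ZT0, so equal ZTs need not mean equal times from lights on. Fewer cells of a type and less RNA per cell cannot be told apart in bulk liver RNA.

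The count tables hold 9095615 to 27462776 reads per library. Replicates of a group correlated with their mates at a mean r of 0.981 to 0.989 over all tested genes in 31 libraries, and at 0.969 in LL ZT12 replicate 3, which stands apart from the rest in many of the genes below. Counts of called members, and many single results of members, are given with and without it. Mean levels, fitted peaks and amplitudes, and the values of marker and related genes, are given with it only. Levels are counts scaled to the size of the library (CPM), or CPM per kilobase of a gene's own exon bases (RPKM) where genes are compared with each other. Changes are log2 fold changes of SL over LL with their standard error (SE), and adjusted p-values are those of edgeR's quasi-likelihood test with Benjamini-Hochberg adjustment over all 14456 tested genes. A gene is called where that value is under 0.05.

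The levels of the members spanned several orders of magnitude. Gstp1, the pi class GST of hepatocytes, had the highest mean over the 32 livers at 409 RPKM, followed by Gstm1 of the mu class at 357 RPKM and Gsta3 of the alpha class, which detoxifies aflatoxin epoxide in mice, at 325 RPKM. The UGTs were led by Ugt2b36 at 297 RPKM, Ugt2b1 at 269.9 RPKM and Ugt2b5 at 215 RPKM, members of the subfamily that glucuronidates steroids and many drugs. The SULTs were led by Sult2a8, a bile acid sulfotransferase of mouse liver, at 294 RPKM, and Sult1a1, which sulfonates phenols, at 211 RPKM. These 8 genes were above 200 RPKM, and 10 members were below 10 RPKM. Sult1d1, known in mice for sulfonating catecholamines, followed among the SULTs at 42.3 RPKM. The lowest were Ugt2b37 at 0.476 RPKM, Gstp2 at 0.666 RPKM and Sult2a7 at 0.695 RPKM, with a library as low as 1 read. The GST genes made up 47.4% of the summed RPKM of all members, the UGT genes 37.3% and the SULT genes 15.4%.

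On the mean over the 4 times, edgeR called 0 of 41 members and 0.00% of all tested genes for a difference between SL and LL. Of the members, 2 had an unadjusted p under 0.05 in edgeR, 1 in DESeq2 and 1 in limma, and DESeq2 and limma called 0 as well. Mean changes ran from -0.23 for Sult2a7 to 0.28 for Ugt1a9 on the log2 scale. In contrast, 22 of 41 members were called for an SL minus LL difference that varied with the time of day (the photoperiod by ZT interaction), where 32.7% of all tested genes were called. They were 8 of the 19 GST genes, 8 of the 15 UGT genes and 6 of the 7 SULT genes.

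The calls at single times changed direction through the day. At ZT0, 8 members were called (11.04% of all tested genes), 5 higher in SL (6.07% of all genes) and 3 lower (4.97%). At ZT6, 10 were called (15.3% of all genes), 8 higher in SL (6.90%) and 2 lower (8.38%). At ZT12, 8 were called (12.4% of all genes), 0 higher in SL (6.05%) and 8 lower (6.40%). At ZT18, 6 were called (9.21% of all genes), 2 higher in SL (4.82%) and 4 lower (4.39%). The median log2 fold change of the 41 members was 0.10 at ZT0, 0.15 at ZT6, -0.12 at ZT12 and -0.03 at ZT18, beside medians of all tested genes that lay between -0.01 and 0.01. Of the 18 members called at any time, 10 were called at 2 or more times, and each of those 10 was higher in SL at some and lower at others. Of all 14456 tested genes, 1887 were called at 2 or more times, and 96.08% of these did the same. A reversal is therefore not particular to the members. The share of all tested genes called at any time was not computed.

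**Figure D1:**
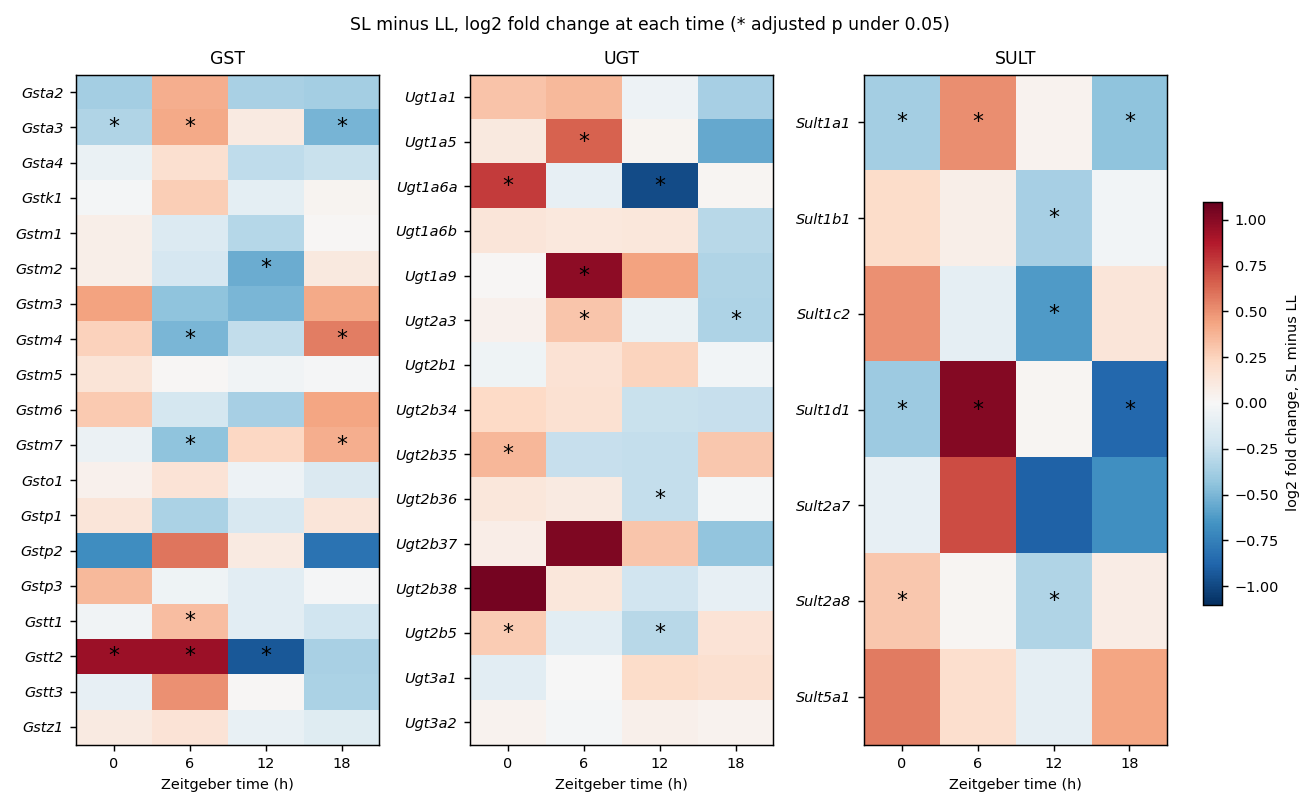
Log2 fold change of SL over LL at each zeitgeber time (columns) for the 19 GST, 15 UGT and 7 SULT genes (rows), red where SL is higher and blue where SL is lower, with an asterisk where the adjusted p is under 0.05. The SULT1 genes Sult1a1 and Sult1d1 and the alpha GST Gsta3 are blue at ZT0 and ZT18 and red at ZT6, while Gstm4 and Gstm7 are blue at ZT6 and red at ZT18.

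Among the GSTs, Gsta3 (chr1:21240589-21265661, plus strand, GRCm38) had the smallest interaction p. Gsta3 stood at 1178, 1073, 1324 and 1250.2 CPM at ZT0, 1365, 1477, 1478 and 1616 CPM at ZT6, 1727, 1492, 1482 and 1561 CPM at ZT12 and 1070.1, 1199, 1333 and 1272 CPM at ZT18 in SL livers. In LL livers it stood at 1490.0, 1395, 1532 and 1664 CPM at ZT0, 1143, 1185, 1182 and 929 CPM at ZT6, 1486, 1419, 1501 and 1455 CPM at ZT12 and 1664, 1736, 1704 and 1824 CPM at ZT18. The SL values were highest at ZT12 and the LL values at ZT18, and at ZT0, ZT6 and ZT18 the ranges of SL and LL did not overlap. The log2 fold change of SL over LL was -0.33 ± 0.08 at ZT0 (adjusted p = 0.0071), 0.42 ± 0.08 at ZT6 (adjusted p = 0.000565) and -0.51 ± 0.08 at ZT18 (adjusted p = 0.000102), and 0.10 ± 0.08 at ZT12, where it was not called (adjusted p = 0.508). The interaction had an adjusted p of 7.07e-07. LL ZT6 replicate 4, which held the lowest Gsta3 value of all 32 livers, was also the lowest of 32 in Gsta2, Gsta4, Gstk1, Gstt3, Sult1a1, Sult1d1 and Ugt2b36; the ZT6 call of Gsta3 remained without it, at an adjusted p of 0.00527. The other alpha genes, Gsta2 and Gsta4, were called for time of day in LL (adjusted p = 0.0428 and 0.00401) and not for the interaction (adjusted p = 0.192 and 0.0541). Gsta4 gained the interaction call in 5 of 32 fits that left out a library, with an adjusted p of 0.0288 without LL ZT12 replicate 3 and 0.0079 without LL ZT12 replicate 4. The Gsta2 call in LL was lost in 10 of these fits, with the highest adjusted p of 0.194 without LL ZT6 replicate 4.

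The mu class lies in a cluster of 7 members on chromosome 3, and 4 of them, Gstm3, Gstm4, Gstm6 and Gstm7, were called for the interaction. Gstm4 and Gstm7 were called at ZT6 and ZT18, with signs opposite to those of Gsta3. Gstm4 (chr3:108040408-108044894, minus strand) stood at 42.2, 40.1, 36.5 and 42.3 CPM at ZT0, 38.5, 29.5, 31.4 and 27.8 CPM at ZT6, 30.9, 34.1, 34.9 and 30.6 CPM at ZT12 and 39.1, 40.1, 48.3 and 41.5 CPM at ZT18 in SL livers. The LL livers held 34.1, 29.3, 36.1 and 35.9 CPM at ZT0, 43.6, 47.5, 46.4 and 42.7 CPM at ZT6, 36.6, 41.3, 42.1 and 37.1 CPM at ZT12 and 30.3, 31.2, 22.3 and 30.8 CPM at ZT18. Every SL value was above every LL value at ZT0 and ZT18, and every SL value was below every LL value at ZT6 and ZT12, of which ZT6 and ZT18 were called. The change was -0.51 ± 0.10 at ZT6 (adjusted p = 0.000567) and 0.56 ± 0.10 at ZT18 (adjusted p = 0.000361). Gstm7 (chr3:107926334-107931817, minus strand) behaved alike at both times, with 54.8, 51.2, 47.1 and 52.9 CPM in SL against 63.1, 63, 79.5 and 73.5 CPM in LL at ZT6 and 75.8, 70.2, 70.3 and 72.5 CPM in SL against 53, 57.6, 52.2 and 56.9 CPM in LL at ZT18. Its changes were -0.44 ± 0.09 (adjusted p = 0.000667) and 0.40 ± 0.09 (adjusted p = 0.00346), again with no overlap between the photoperiods.

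Gstm3 was called for the interaction (adjusted p = 0.00478) but at no single time. Its values were 33.3, 32.1, 33.7 and 29.2 CPM in SL against 26.4, 22.6, 22.3 and 23 CPM in LL at ZT0, without overlap, and 27.2, 19.8, 24 and 21.6 CPM in SL against 24.7, 38.7, 44 and 23.3 CPM in LL at ZT12, where the ranges overlapped. Of its exonic 50-base words, 28.8% also occur in other genes, Gstm1, Gstm6 and pseudogenes, so its count is uncertain. Gstm1, the most abundant mu gene, was called in no comparison: its interaction had an adjusted p of 0.185, and its values overlapped between SL and LL at all 4 times. At ZT12 it had 467, 512, 490.0 and 479 CPM in SL and 570.4, 545, 817 and 489 CPM in LL, a change of -0.31 ± 0.11 (adjusted p = 0.0607) that moved to -0.13 ± 0.09 without LL ZT12 replicate 3 (adjusted p = 0.403). Gstm2 was called lower in SL at ZT12 at -0.55 ± 0.17 (adjusted p = 0.0319), a call that was lost in 5 of 32 fits that left out a library, among them the one without LL ZT12 replicate 3 at -0.29 ± 0.15 (adjusted p = 0.243).

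The 3 theta genes form a cluster on chromosome 10, and all 3 were called for the interaction. Gstt2 (chr10:75831114-75837424, minus strand), whose class handles small halogenated compounds and peroxides, had the largest changes of all GST genes that were called. It stood at 79.9, 82.6, 41.5 and 52.6 CPM at ZT0, 75.4, 58.4, 56.9 and 44 CPM at ZT6, 43.3, 41.7, 35.5 and 35.4 CPM at ZT12 and 30.5, 28.6, 38.3 and 38.9 CPM at ZT18 in SL livers. In LL livers it stood at 32.8, 31.6, 32.2 and 36.7 CPM at ZT0, 29.5, 27.9, 34.9 and 29.9 CPM at ZT6, 53.2, 70.6, 135 and 38 CPM at ZT12 and 51.1, 42.6, 35.9 and 44.6 CPM at ZT18. The SL livers were high at ZT0 and ZT6, without overlap with LL at either time, while the LL livers were high and widely spread at ZT12. The change was 0.94 ± 0.25 at ZT0 (adjusted p = 0.0104), 0.94 ± 0.24 at ZT6 (adjusted p = 0.00765) and -0.93 ± 0.24 at ZT12 (adjusted p = 0.01). The ZT12 value rests on LL ZT12 replicate 3, at 135 CPM: without it the change was -0.46 ± 0.20 (adjusted p = 0.14). The ZT0 call was lost without SL ZT0 replicate 1 (adjusted p = 0.0538). The neighbours Gstt1 and Gstt3 had weaker interactions (adjusted p = 0.0378 and 0.0472). Both were marginal: the Gstt1 call was lost in 9 of 32 fits that left out a library (at most 0.0939, without SL ZT6 replicate 4) and the Gstt3 call in 23 (at most 0.140, without SL ZT6 replicate 3). Without LL ZT12 replicate 3 the adjusted p was 0.000714 for Gstt1 and 0.0151 for Gstt3. Gstt1 was also called higher in SL at ZT6 (0.34 ± 0.12, adjusted p = 0.0463), a call lost in 23 of the 32 fits (at most 0.135, without SL ZT6 replicate 4) and at 0.00124 without LL ZT12 replicate 3. Gstt3 shares 13.6% of its exon bases with Gm20441 on the same strand.

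None of the 3 pi genes on chromosome 19 was called in any comparison with all livers. Without LL ZT12 replicate 3, Gstp2, one of the members below 1 RPKM, was called for the interaction (adjusted p = 0.0395) and the 24 h rhythm (adjusted p = 0.0174). Gstp1 spread widely among mice of a group: at ZT6 it had 386, 664, 324 and 774 CPM in SL and 709, 428, 789 and 806 CPM in LL, and its ranges overlapped between SL and LL at all 4 times. Of its exonic 50-base words 33.7% occur in Gstp2 and a pseudogene. Gstk1, the kappa GST of mitochondria and peroxisomes, and Gsto1, an omega GST with dehydroascorbate reductase activity, were called nowhere either with all livers. Gstk1 averaged 147 ± 14.9 CPM in SL livers and 122 ± 9.75 CPM in LL livers at ZT6 (SD, n = 4 each), a change of 0.27 ± 0.11 (adjusted p = 0.104) with overlapping ranges. Without LL ZT12 replicate 3, which enters the shared estimate of the spread, Gstk1 was called at ZT6 (0.28 ± 0.08, adjusted p = 0.0133), and Gsto1 for the interaction (adjusted p = 0.00674), time of day in LL (adjusted p = 0.00102) and the 24 h rhythm (adjusted p = 0.0052). Gstz1, which isomerizes maleylacetoacetate in tyrosine breakdown, was called for the 24 h rhythm alone (adjusted p = 0.0286). That call was lost in 3 of 32 fits that left out a library (at most 0.0589, without SL ZT6 replicate 4), and Gstz1 gained the interaction call in 4 (lowest adjusted p 0.0314, without LL ZT12 replicate 3).

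**Figure D2:**
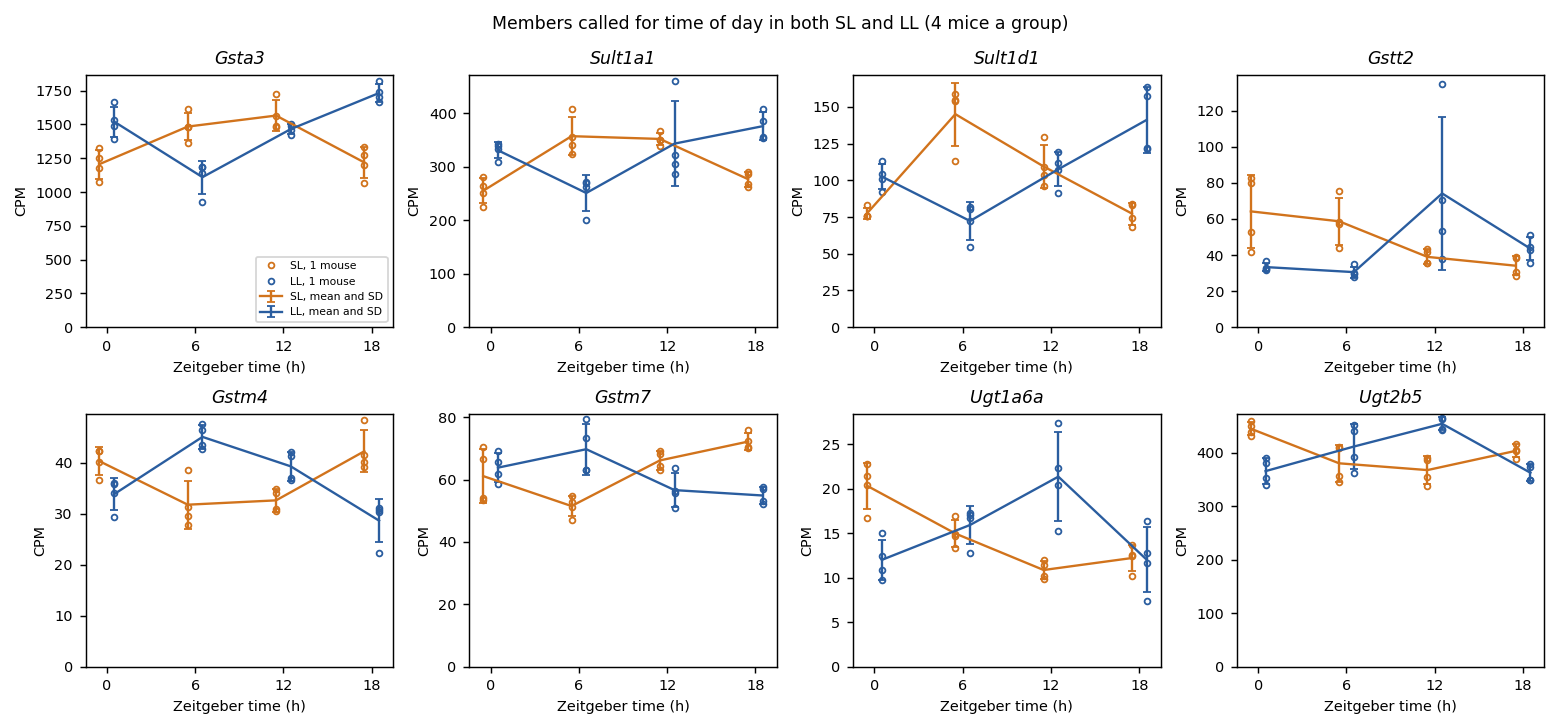
CPM (vertical axes from 0) against zeitgeber time in h for the 8 members called for time of day in both SL (orange, left) and LL (blue, right); open points are single mice, lines and bars the mean and SD of 4 mice. Gsta3, Sult1a1 and Sult1d1 are lowest at ZT0 or ZT18 in SL and at ZT6 in LL, and the single LL mouse at 135 CPM widens the Gstt2 bar at ZT12.

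The UGT1A genes share their C-terminal part. On chromosome 1 each gene has a first exon of its own, which encodes the substrate-binding part, spliced onto the same later exons of 1311 bases, which encode the part that binds UDP-glucuronic acid. The sequences show the last 30 bases of each first exon in lower case and the 30 bases of the common second exon (chr1:88215044-88215073, plus strand, GRCm38) in capitals, taken from GENCODE transcripts. The first exon ends lie at chr1:88212842-88212871 for Ugt1a1, chr1:88166874-88166903 for Ugt1a5, chr1:88139302-88139331 for Ugt1a6a, chr1:88107770-88107799 for Ugt1a6b and chr1:88071649-88071678 for Ugt1a9, all on the plus strand. They are shown because only the lower-case side differs between genes.
Ugt1a1: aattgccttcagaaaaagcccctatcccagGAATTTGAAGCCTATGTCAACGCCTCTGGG
Ugt1a5: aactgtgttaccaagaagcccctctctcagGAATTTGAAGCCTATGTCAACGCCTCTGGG
Ugt1a6a: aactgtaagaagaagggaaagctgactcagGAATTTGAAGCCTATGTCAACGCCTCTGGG
Ugt1a6b: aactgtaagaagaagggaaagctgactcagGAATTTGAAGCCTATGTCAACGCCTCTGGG
Ugt1a9: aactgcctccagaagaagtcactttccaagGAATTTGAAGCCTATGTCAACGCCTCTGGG
The capitals are the same in all 5 genes, and the lower-case ends of Ugt1a6a and Ugt1a6b are the same as each other. Ugt1a8, which carries the same common exons, had 4 reads in all 32 libraries together, so reads of the common exons were not counted for each gene in turn, and RPKM was computed on each gene's own exon bases. Shared 50-base words make up 79.8% of the exonic words of Ugt1a6b, 64.0% of Ugt1a5, 62.0% of Ugt1a9, 58.2% of Ugt1a1 and 52.1% of Ugt1a6a, so the counts of these genes are uncertain. Exons of Ugt1a1 also overlap Gm20528 on the opposite strand.

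Ugt1a6a, known for glucuronidating planar phenols, had the smallest interaction p of the UGT genes (adjusted p = 2.52e-05). It stood at 16.7, 22.7, 20.4 and 21.4 CPM at ZT0, 14.9, 16.9, 13.3 and 14.7 CPM at ZT6, 11.4, 11.9, 9.84 and 10.2 CPM at ZT12 and 12.6, 12.4, 13.7 and 10.1 CPM at ZT18 in SL livers. The LL livers held 12.4, 10.9, 15 and 9.69 CPM at ZT0, 17.3, 16.6, 12.7 and 17 CPM at ZT6, 15.2, 22.3, 27.4 and 20.4 CPM at ZT12 and 16.3, 11.6, 12.7 and 7.38 CPM at ZT18. SL was above LL without overlap at ZT0 and below LL without overlap at ZT12. The change was 0.77 ± 0.18 at ZT0 (adjusted p = 0.00362) and -0.98 ± 0.18 at ZT12 (adjusted p = 0.0002), the largest fall of a called member at that time, and it was -0.84 ± 0.18 without LL ZT12 replicate 3 (adjusted p = 0.00152). Ugt1a6b, with the same lower-case end, was called in no comparison with all livers (interaction adjusted p = 0.243). Without LL ZT12 replicate 3 it was called lower in SL at ZT18 (-0.32 ± 0.07, adjusted p = 0.00226) and for the interaction (adjusted p = 0.00108). It was then also called for time of day in SL (adjusted p = 0.0103) and LL (adjusted p = 0.0283) and for the 24 h rhythm (adjusted p = 0.000648).

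Ugt1a1, the bilirubin-conjugating enzyme, was called for the interaction (adjusted p = 0.00455) but at no single time. It had 122, 109, 101 and 109 CPM in SL against 87.3, 90.1, 87.4 and 90.2 CPM in LL at ZT0, 106, 105, 110.2 and 102 CPM in SL against 79.5, 90.7, 83.1 and 77.3 CPM in LL at ZT6 and 75.1, 74.3, 96.9 and 85.4 CPM in SL against 109, 104, 104 and 111 CPM in LL at ZT18. The photoperiods did not overlap at these 3 times, with SL higher at ZT0 and ZT6 and lower at ZT18. At ZT12 the values overlapped, with 111, 94.9, 83.9 and 102 CPM in SL and 121, 120.0, 62.1 and 105 CPM in LL, the low one being LL ZT12 replicate 3. Without that library Ugt1a1 was called at ZT0 (0.32 ± 0.08, adjusted p = 0.00613), ZT6 (0.37 ± 0.08, adjusted p = 0.00103) and ZT18 (-0.38 ± 0.08, adjusted p = 0.0013).

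Ugt1a9 and Ugt1a5 were called higher in SL at ZT6. Ugt1a9, another phenol-conjugating form, had 43.2, 23.5, 35.6 and 19.5 CPM in SL and 17, 22.3, 15.1 and 7.48 CPM in LL, with overlap, a change of 0.99 ± 0.31 (adjusted p = 0.0299). The call was lost in 4 of 32 fits that left out a library, with the highest adjusted p of 0.135 without LL ZT6 replicate 4. Ugt1a5 had 63.7, 44.2, 54.5 and 42.1 CPM in SL and 31.1, 36.3, 32.6 and 30.3 CPM in LL, without overlap, a change of 0.65 ± 0.21 (adjusted p = 0.0375; lost in 5 of 32 such fits, at most 0.133 without SL ZT6 replicate 1).

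The UGT2 genes lie on chromosome 5, and 4 of the 7 UGT2B members and Ugt2a3 were called for the interaction. Ugt2b5 (chr5:87124960-87140318, minus strand) stood at 449, 459, 439 and 432 CPM at ZT0, 357, 411, 344 and 408 CPM at ZT6, 391, 355, 387 and 337 CPM at ZT12 and 403, 405, 388 and 417 CPM at ZT18 in SL livers. In LL livers it stood at 391, 339, 379.8 and 352 CPM at ZT0, 392, 441, 451 and 362 CPM at ZT6, 465, 443, 444 and 464 CPM at ZT12 and 349, 373, 379.6 and 348 CPM at ZT18. SL was above LL at ZT0 and ZT18 and below LL at ZT12, each time without overlap, although only ZT0 (0.28 ± 0.07, adjusted p = 0.00811) and ZT12 (-0.31 ± 0.07, adjusted p = 0.00402) were called. These changes are small, and the spread of Ugt2b5 within groups, an SD of 0.092 on the log2 CPM scale, lies at the 4.46 percentile of all tested genes. Of the exonic 50-base words of Ugt2b5, 41.7% also occur in Ugt2b38, Ugt2b37 and Ugt2b36, so its count is uncertain.

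Ugt2b35 was also called higher in SL at ZT0, with 145, 156, 158 and 160.0 CPM in SL against 129, 113, 118 and 120.1 CPM in LL at ZT0, a change of 0.37 ± 0.11 (adjusted p = 0.0359). The ranges did not overlap, but the call was lost in 6 of 32 fits that left out a library (at most 0.0999, without LL ZT0 replicate 2). Ugt2b36, the most abundant UGT, was lower in SL at ZT12, with 575, 555, 603 and 543 CPM in SL against 727, 667, 661 and 675 CPM in LL (-0.26 ± 0.08, adjusted p = 0.0238; lost in 3 of these fits, at most 0.0771 without SL ZT12 replicate 4). Ugt2b34 was called for the interaction (adjusted p = 0.00597) and the 24 h rhythm (adjusted p = 0.00223), but at no single time. It was also called for time of day in SL (adjusted p = 0.0422), with 393, 546, 444 and 472 CPM at ZT6 and 372, 396, 366 and 344 CPM at ZT18; the call was lost in 15 of 32 fits that left out a library (at most 0.120, without SL ZT6 replicate 2). Ugt2a3 was called higher in SL at ZT6 (0.31 ± 0.11, adjusted p = 0.0444) and lower at ZT18 (-0.34 ± 0.11, adjusted p = 0.0349); the ZT6 call was lost in 14 of 32 fits that left out a library (at most 0.220, without SL ZT6 replicate 4) and the ZT18 call in 6 (at most 0.120, without SL ZT18 replicate 4).

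Neither UGT3A gene was called. Ugt3a2, whose human counterpart uses UDP-glucose and UDP-xylose in place of UDP-glucuronic acid, averaged 316 ± 6.77 CPM in SL livers and 308 ± 11 CPM in LL livers at ZT0, and 308 ± 6.48 CPM in SL livers and 296 ± 57.7 CPM in LL livers at ZT12 (SD, n = 4 each). The wide SD at LL ZT12 comes from replicate 3, at 209.96 CPM beside 324 to 327 CPM in its mates. Its changes of SL over LL were 0.04 ± 0.09, -0.02 ± 0.09, 0.06 ± 0.09 and 0.04 ± 0.09 from ZT0 to ZT18.

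The SULT genes held the smallest interaction p of all members. Sult1d1 (chr5:87554645-87569027, minus strand) stood at 75.8, 75.5, 83.2 and 75.6 CPM at ZT0, 113, 154, 154 and 159 CPM at ZT6, 129, 109, 95.8 and 103 CPM at ZT12 and 74.1, 83.8, 83.1 and 68.2 CPM at ZT18 in SL livers. In LL livers it stood at 101, 113, 104 and 92.2 CPM at ZT0, 81.8, 80.6, 72.4 and 54.3 CPM at ZT6, 119.5, 91.6, 107 and 112 CPM at ZT12 and 157, 122, 164 and 121 CPM at ZT18. SL was highest at ZT6 and LL at ZT18, and the photoperiods did not overlap at ZT0, ZT6 or ZT18. The change was -0.40 ± 0.13 at ZT0 (adjusted p = 0.0346), 1.01 ± 0.13 at ZT6 (adjusted p = 1.01e-06) and -0.87 ± 0.13 at ZT18 (adjusted p = 2.27e-05), with an interaction at an adjusted p of 1.01e-08. The ZT0 call was lost in 6 of 32 fits that left out a library, with the highest adjusted p of 0.110 without LL ZT0 replicate 2; the ZT6 and ZT18 calls were kept in all of them.

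Sult1a1 (chr7:126672865-126676432, minus strand) had called changes at the same 3 times as Sult1d1, in the same directions. It stood at 250.4, 281, 265 and 225 CPM at ZT0, 407, 341, 356 and 324 CPM at ZT6, 368, 339.6, 350.2 and 351 CPM at ZT12 and 262, 268, 290.1 and 287 CPM at ZT18 in SL livers. The LL livers held 309, 339, 333 and 343 CPM at ZT0, 262, 271, 269.7 and 201 CPM at ZT6, 305, 323, 459.5 and 286 CPM at ZT12 and 385, 354, 356 and 408 CPM at ZT18. SL was below LL at ZT0 and ZT18 and above LL at ZT6, without overlap at any of these times, and the changes were -0.37 ± 0.11 (adjusted p = 0.023), 0.51 ± 0.11 (adjusted p = 0.00127) and -0.44 ± 0.11 (adjusted p = 0.00774) at ZT0, ZT6 and ZT18. The ZT0 call was lost in 4 of 32 fits that left out a library (at most 0.0894, without SL ZT0 replicate 4). Of its exon bases 4.0% overlap Sgf29 on the opposite strand. The highest Sult1a1 value of all, 459.5 CPM, was in LL ZT12 replicate 3.

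Sult2a8, Sult1c2 and Sult1b1 were lower in SL at ZT12. Sult2a8 had 1012, 833, 836 and 838 CPM in SL against 1145, 1086, 1087 and 1102 CPM in LL at ZT12 (-0.33 ± 0.09, adjusted p = 0.0143), and 1151, 1185, 992 and 974 CPM in SL against 833, 867, 920.4 and 886 CPM in LL at ZT0 (0.30 ± 0.09, adjusted p = 0.0309). The ranges did not overlap at either time; the ZT12 call was lost in 3 of 32 fits that left out a library (at most 0.0520, without SL ZT12 replicate 3) and the ZT0 call in 5 (at most 0.113, without LL ZT0 replicate 1). Sult1c2 had 11.9, 13.9, 15 and 12.8 CPM in SL against 21.7, 21.4, 20.7 and 19 CPM in LL at ZT12, without overlap (-0.62 ± 0.18, adjusted p = 0.0209; lost in 2 of these fits, at most 0.0633 without SL ZT12 replicate 1). Sult1b1, known for sulfonating thyroid hormones, had 30.2, 32.7, 39.5 and 33.6 CPM in SL against 48.8, 49, 40.7 and 37.3 CPM in LL, with overlap (-0.37 ± 0.12, adjusted p = 0.0337; lost in 5 of these fits, at most 0.107 without SL ZT12 replicate 1).

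All 8 calls at ZT12 were lower in SL with all livers. Without LL ZT12 replicate 3 there were 8 lower and 1 higher: Gstm2 and Gstt2 were no longer called, and Gstm7 was called higher in SL (0.29 ± 0.09, adjusted p = 0.0302). Marker genes of liver cells moved at the same time. Of 5 markers of pericentral hepatocytes, the zone of the lobule where drug metabolism is most active, 4 were lower in SL at ZT12. At that time 6.40% of all tested genes were called lower in SL and 6.05% higher. The summed level of these 5 markers was 4860.4 to 6871 CPM in SL against 7720 to 9603 CPM in LL. Most of that sum is Cyp2e1, at a mean of 5427 CPM, which was also the only one of 5 general hepatocyte markers called at ZT12. Of 5 periportal markers 2 were higher in SL and 1 lower. At ZT12 sinusoidal endothelial markers were higher in SL in 2 of 4, and their sum was 204 to 233 CPM in SL and 148 to 187 CPM in LL. The interaction was called for 4 of 5 pericentral, 4 of 5 periportal and 3 of 4 endothelial markers (32.7% of all tested genes). Of 5 cholangiocyte markers 1 (Sox9) and of 5 Kupffer cell markers 1 (Clec4f) were higher in SL at ZT12. At ZT0, 1 pericentral marker (Cyp1a2) and 2 periportal markers (Sds and Cyp2f2) were higher in SL and 0 of either list lower. At that time 1 endothelial marker (Stab2) and 1 cholangiocyte marker (Sox9) were lower and 0 of either list higher. At ZT6, 1 pericentral marker (Slc1a2) was higher in SL and 0 lower, and 2 periportal markers (Sds and Gls2) were higher and 1 (Hal) lower. Of the stellate cell and fibroblast markers 1 (Lrat) was higher at ZT6 and 0 lower. The part of these marker changes in the results was not tested. Markers of exocrine pancreas and adipocytes did not pass the filter on low counts and were at 0 in at least 1 library. Summed exocrine pancreas markers still reached 42.3 CPM in a library of SL ZT12, 21.9 CPM in one of LL ZT0 and 4.58 CPM in one of LL ZT6. The medians of these groups were 0.077, 0.0293 and 0.0814 CPM. Summed skeletal muscle markers were 0.662 to 24.8 CPM in SL ZT18 and 8.30 to 158 CPM in LL ZT18, and all 5 were called for time of day in LL.

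Time of day within each photoperiod was tested as a difference among the 4 times. In SL, 10 of 41 members were called (19.1% of all tested genes), and in LL, 13 were called (18.3%). The 8 members called in both photoperiods were Gsta3, Gstm4, Gstm7, Gstt2, Sult1a1, Sult1d1, Ugt1a6a and Ugt2b5, where 12.12% of all tested genes were called in both. The call of Ugt2b5 in SL was lost in 3 of 32 fits that left out a library (at most 0.0670, without SL ZT0 replicate 2), and that of Gstm7 in LL in 1 (0.0622, without LL ZT6 replicate 3). A 24 h wave through the 4 group means put the peak of Sult1d1 at 7.9 h in SL livers and 17.7 h in LL livers, with log2 amplitudes of 0.51 and 0.49. Gsta3 and Sult1a1 peaked close to it, at 9.52 and 9.48 h in SL livers, against 18.3 and 17.8 h in LL livers.

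Gstm4 and Gstm7 reached their peaks at 20.4 and 17.1 h in SL livers, and at 7.21 and 4.18 h in LL. Ugt1a6a, Ugt2b5 and Gstt2 peaked at 1.22, 22.8 and 3.28 h in SL livers, and at 10.1, 10 and 13.8 h in LL. Over these 8 members the SL peak minus the LL peak, counted the short way round the cycle, was -11.2 to -8.34 h, with a median of -10.2 h. The median log2 amplitude of the 41 members was 0.20 in SL and 0.20 in LL. These medians lay above those of all tested genes, at 0.14 in SL and 0.15 in LL. The largest amplitude of a member was 0.51 in SL, for Sult1d1, and 0.63 in LL, for Ugt2b38. Ugt2b38 was called in no comparison, and its spread within groups lay at the 99.2 percentile of all tested genes. The next in LL was Gstt2 at 0.56, whose LL ZT12 mean includes replicate 3.

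A difference in the 24 h wave between SL and LL was called for 25 of 41 members (36.0% of all tested genes), among them all 22 members called for the interaction. Their peaks in SL and LL lay 5.15 to 11.9 h apart, with a median of 10.4 h, and 18 of the 25 lay within 3 h of opposite phase. The test that chose them favours waves far apart in phase, and the same share over all genes it called was not computed. Of these members, Gstm6, Gstt3, Gstz1, Sult1b1, Sult1c2, Sult2a7, Ugt1a1, Ugt1a5, Ugt1a9, Ugt2a3 and Ugt2b36 had no time-of-day call in either photoperiod with all livers. The peak times of these genes are uncertain. When each LL group was set 12 h later, so that SL at ZT0 met LL at ZT12, edgeR called 0 of 41 members for an interaction, where it called 0.519% of all tested genes. Of the members, 5 had an unadjusted p under 0.05 in edgeR: Gsta3 (0.00291), Sult1a1 (0.00382), Sult1d1 (0.00753), Gsta4 (0.0133) and Gsta2 (0.0314). limma called 0 members with 6 at an unadjusted p under 0.05, and DESeq2 called 1, Gsta3, at an adjusted p of 0.0384, with 6 at an unadjusted p under 0.05.

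**Figure D3:**
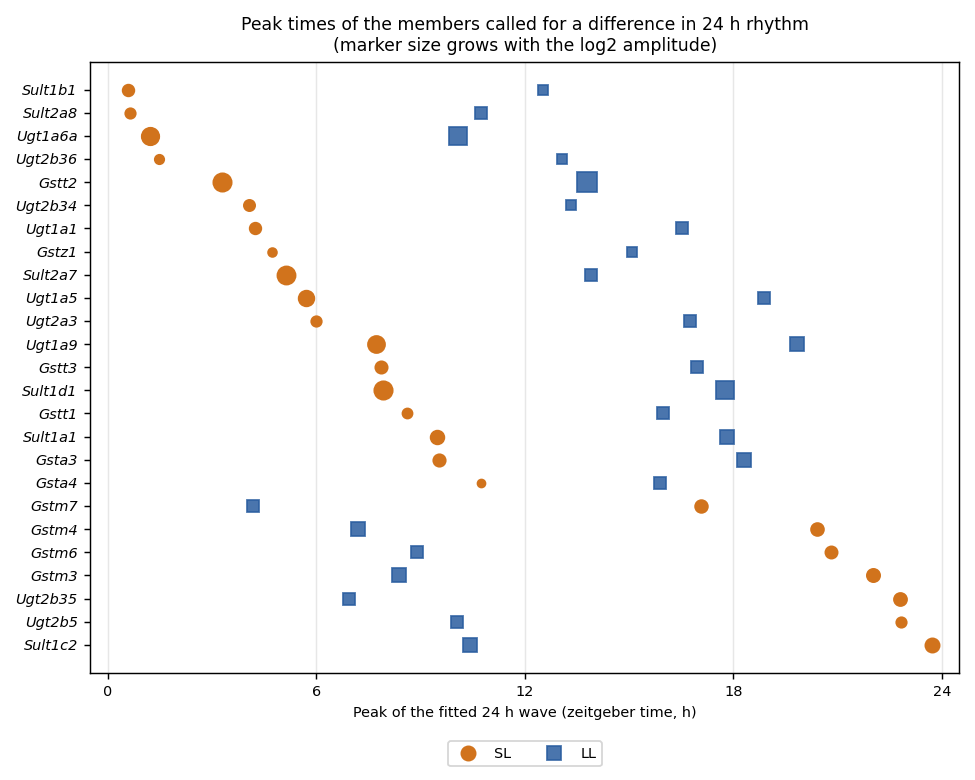
Peak of the fitted 24 h wave in h of zeitgeber time (horizontal axis) in SL (orange circles) and LL (blue squares) for the 25 members called for a difference in that wave, sorted by their SL peak, with larger markers for larger log2 amplitudes. The 2 peaks of each gene lie 5.15 to 11.9 h apart, and the mu genes Gstm3, Gstm4, Gstm6 and Gstm7 peak late in the SL cycle and early in the LL cycle. The test that chose the genes favours peaks far apart. Genes with no time-of-day call in either photoperiod, such as Gstm6, are included, and their peak times are uncertain.

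LL ZT12 replicate 3 stood apart most in these families. It held the highest value of all 32 livers in 16 members and the lowest in 8, while no other library was an extreme in more than 8 members. Most GST genes were high in it: Gstm1 had 817 CPM beside 489 to 570 CPM in its 3 mates, Gstt1 343 CPM beside 185 to 223 CPM, Gstk1 193 CPM beside 120.5 to 129 CPM, and Gsto1 102 CPM beside 61.6 to 66.2 CPM. Gstp1 and Gstz1 were within the range of their mates, and Gsta3 was 1.03 times their mean. Several UGT genes were low in it: Ugt1a9 had 4.56 CPM beside 18.1 to 23.2 CPM in its mates, Ugt3a1 14.6 CPM beside 35.8 to 42.6 CPM, Ugt1a6b 21.03 CPM beside 49.99 to 51.8 CPM and Ugt1a1 62.1 CPM beside 105 to 121 CPM. Ugt1a6a was high, with 27.4 CPM beside 15.2 to 22.3 CPM. Sult1d1, Sult2a8 and Sult1c2 were within the range of their mates.

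Without LL ZT12 replicate 3, more members were called in all comparisons but 2, the mean over the times and the one with LL set 12 h later, in which 0 were called either way (0.0205% and 1.03% of all tested genes). The counts were 9 at ZT0 (15.4% of all tested genes), 13 at ZT6 (20.9%), 9 at ZT12 (11.5%) and 14 at ZT18 (13.5%). They were 27 for the interaction (38.7%), 17 for time of day in SL (26.9%), 18 for time of day in LL (21.2%) and 28 for the 24 h rhythm (41.1%). At ZT12, Gstm2 and Gstt2 lost their calls, Gstm7 gained one as higher in SL, and Ugt2b34 and Ugt2b35 gained one as lower. At ZT18, 8 members gained a call: Gsta4, Gstm6, Gstt1, Ugt1a1, Ugt1a5, Ugt1a6b, Ugt2b34 and Ugt2b35. No label marks this liver as different from its mates, and the cause of its profile was not tested.

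**Figure D4:**
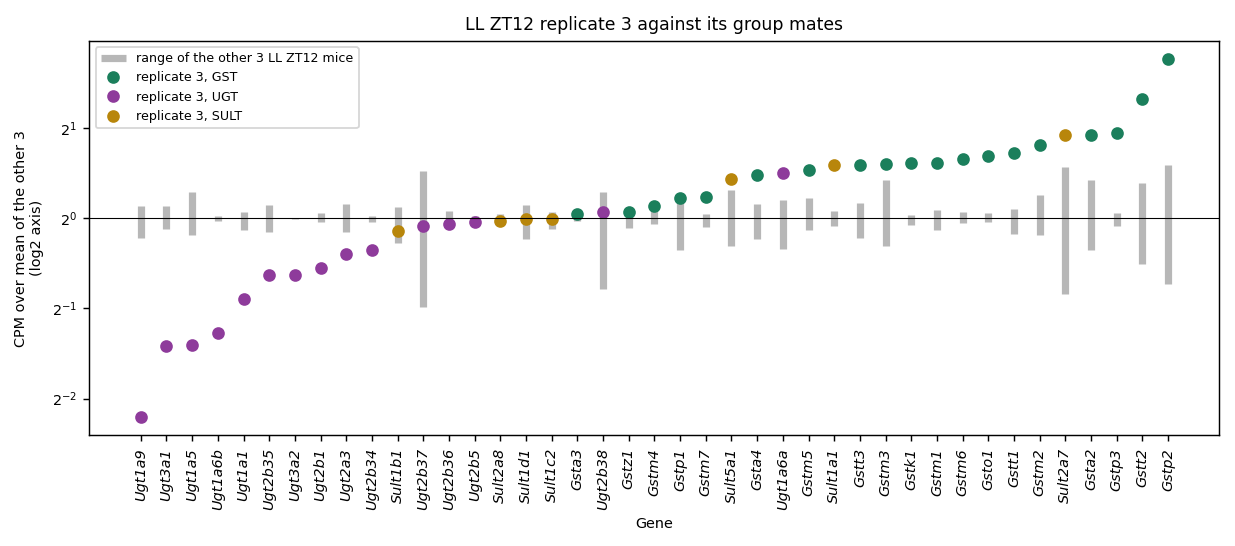
CPM of each of the 41 members in LL ZT12 replicate 3 divided by the mean of the other 3 LL ZT12 mice (points, log2 axis), with grey bars for the range of those 3 mice. Most GST genes (green) lie above their mates and most UGT1A and UGT3A genes (purple) below, from Ugt1a9 at the left to Gstp2 at the right.

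Mice of the same group also differed from each other in ways that several members shared. For each member the deviation of log2 CPM from its group mean was correlated with that of each other member over 31 livers, leaving out LL ZT12 replicate 3, which gives 820 pairs; the choice was made after seeing the data. Adjusted over all pairs, 51 passed 0.05 by a permutation test of Pearson's r within groups (two-sided, 100000 permutations), 41 with a positive and 10 with a negative r. With all 32 livers 68 pairs passed, 36 of them in both sets. All values of a liver share 1 library and its depth.

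Gstp1 and Ugt2b38, a UGT2B gene with a 37.4% share of common 50-base words, varied together from mouse to mouse, with r = 0.78 (permutation p = 2e-05, adjusted 0.0082) and Spearman's rho = 0.79 (permutation p = 0.00011, adjusted 0.012). In SL at ZT6 Ugt2b38 had 2.49, 6.31, 1.05 and 5.17 CPM where Gstp1 had 386, 664, 324 and 774 CPM, replicate by replicate. Sult2a8 and Ugt2b1 had r = 0.82 (permutation p = 9e-05, adjusted 0.0082) and rho = 0.77 (permutation p = 0.00027, adjusted 0.014). Gstp1 and Gstm1, the most abundant GSTs, went opposite ways, with r = -0.68 (permutation p = 0.0013, adjusted 0.031) and rho = -0.69 (permutation p = 0.00078, adjusted 0.024).

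Gstm2 and Gstm4, both of the mu cluster, had r = 0.80 (permutation p = 3e-05, adjusted 0.0082) and rho = 0.79 (permutation p = 1e-05, adjusted 0.0082), 1e-05 being the smallest p that the permutations can give. Without the 2 livers farthest from the median of one gene of the pair, r was 0.75 for Gstp1 and Ugt2b38, 0.74 for Sult2a8 and Ugt2b1, -0.58 for Gstp1 and Gstm1 and 0.75 for Gstm2 and Gstm4. With LL ZT12 replicate 3 kept, r was 0.78, 0.77, -0.41 and 0.74 for these pairs in the same order, and Gstp1 with Gstm1 then had an adjusted permutation p of 0.16.

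**Figure D5:**
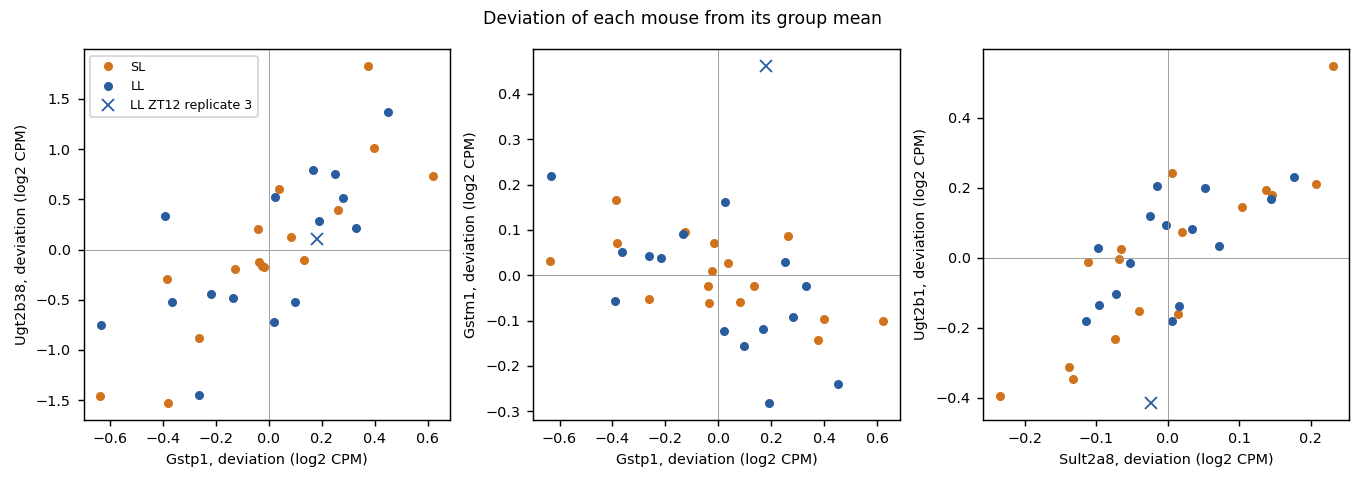
Deviation of each liver from its group mean in log2 CPM for 3 pairs of members (axes), SL in orange and LL in blue, with LL ZT12 replicate 3 as a cross. Over the 31 other livers r was 0.78 for Gstp1 and Ugt2b38, -0.68 for Gstp1 and Gstm1 and 0.82 for Sult2a8 and Ugt2b1.

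Genes that supply or steer conjugation were read from a list of 38, of which 37 were tested. The interaction was called for 23 of the 37 (32.7% of all tested genes), time of day for 20 in SL (19.1%) and for 21 in LL (18.3%). Calls of SL against LL are given here with the share of all tested genes in brackets. At ZT0, 8 were higher in SL (6.07%) and 1 lower (4.97%). At ZT6, 13 were higher (6.90%) and 5 lower (8.38%). At ZT12, 2 were higher (6.05%) and 11 lower (6.40%). At ZT18, 3 were higher (4.82%) and 9 lower (4.39%). Papss2, which makes the sulfonate donor PAPS, had changes of 0.84, 1.13, -0.73 and -0.86 on the log2 scale at ZT0, ZT6, ZT12 and ZT18 (interaction adjusted p = 2.03e-14), called at all 4 times. Por, the electron donor of the P450 enzymes, had 1.61, 2.48, -1.63 and -2.52 at the same times (interaction adjusted p = 1.87e-15). The clock output factors Tef and Dbp had 2.21, 0.80, -1.74 and -1.28 and 5.65, -0.81, -5.04 and -0.20 (interaction adjusted p = 1.87e-15 and 3.58e-13); Tef was called at all 4 times and Dbp at ZT0 and ZT12.

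RefSeq promoters on GRCm38 (250 bases before to 50 bases after the start) were at hand for 36 of the 41 members, 45 promoters in all; Gsta4, Gstt2, Sult2a7, Ugt1a6b and Ugt3a2 had none in the table. Each was searched on both strands for 5 short motifs, and the share among all 32851 promoters of the table is given beside each count. The E-box CACGTG of the core clock was in 0 of 45 member promoters (7.15% of all promoters). The D-box of Dbp and Tef (TTATGTAA, TTACGTAA or TTATGCAA) was in 2, of Gstt1 and Ugt2b1 (1.78% of all). The antioxidant response element TGACNNNGC was in 3, of Gsta3, Gstm5 and Gstm7 (12.39% of all). The hexamer AGGTCA, bound by many nuclear receptors, which can overlap an antioxidant element on the other strand, was in 10 (16.26% of all), and the core GCGTG of the AHR element was in 9 (32.39% of all) and can overlap the antioxidant element, as in Gstm5. A match is a string of letters in this window only.

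The promoters of 4 members called for time of day in both photoperiods are shown for their matches, in capitals. They are Sult1d1 (chr5:87568957-87569256, minus strand) with the AHR core read on the other strand at position -47, Gsta3 (chr1:21240335-21240634, plus strand) with the antioxidant element at -121, the second promoter of Gstm7 (chr3:107931565-107931864, minus strand) with the same element at -129, and Ugt2b5 (chr5:87140291-87140590, minus strand) with AGGTCA at -22. Positions are counted from the start of the transcript.
Sult1d1: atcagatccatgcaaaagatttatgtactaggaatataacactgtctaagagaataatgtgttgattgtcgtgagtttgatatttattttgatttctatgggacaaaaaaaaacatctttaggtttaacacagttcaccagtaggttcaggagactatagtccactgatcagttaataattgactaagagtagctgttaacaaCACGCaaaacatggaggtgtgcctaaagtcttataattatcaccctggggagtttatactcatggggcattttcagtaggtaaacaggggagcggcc
Gsta3: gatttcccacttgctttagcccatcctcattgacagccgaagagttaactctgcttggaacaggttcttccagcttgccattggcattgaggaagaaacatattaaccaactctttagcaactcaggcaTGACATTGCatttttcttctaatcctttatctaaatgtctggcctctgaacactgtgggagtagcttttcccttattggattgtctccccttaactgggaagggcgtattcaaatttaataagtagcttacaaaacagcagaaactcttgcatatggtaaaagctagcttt
Gstm7: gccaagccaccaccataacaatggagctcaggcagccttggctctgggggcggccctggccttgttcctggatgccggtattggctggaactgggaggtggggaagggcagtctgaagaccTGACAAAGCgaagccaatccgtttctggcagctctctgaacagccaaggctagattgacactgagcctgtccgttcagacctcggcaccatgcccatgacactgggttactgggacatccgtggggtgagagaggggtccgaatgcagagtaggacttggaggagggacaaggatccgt
Ugt2b5: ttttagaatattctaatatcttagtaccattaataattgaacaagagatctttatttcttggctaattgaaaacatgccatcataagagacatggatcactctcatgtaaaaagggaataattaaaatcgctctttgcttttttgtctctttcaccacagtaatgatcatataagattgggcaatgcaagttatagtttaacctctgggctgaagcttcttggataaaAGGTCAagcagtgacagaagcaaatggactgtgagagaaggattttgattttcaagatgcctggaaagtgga
Gsta3 and Gstm7 both hold the antioxidant element, as do 12.39% of all promoters. Whether any of these matches bears on the time courses was not tested.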

How the data were processed

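The samples were grouped by photoperiod and ZT from their labels. Per the labels' protocols, polyadenylated RNA was sequenced with a stranded mRNA kit; featureCounts 1.6.2, STAR 2.7.2b and bcl2fastq 2.20.0, with GRCm38 (mm10), are named in the submitters' processing notes. The sources used here do not name the annotation, the strand setting or the treatment of reads that match several places. The authors deposited raw counts, whole numbers per gene, and a second table of log2 expression values with no stated normalization; the deposited log2 table chose the members and served as an alternative.

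Counts were scaled by TMM factors and filtered with filterByExpr by group, and 1 edgeR 4.0.16 quasi-likelihood fit (R 4.3.3) held the 8 group means of all 32 libraries, with Benjamini-Hochberg adjustment over 14456 genes. Contrasts tested the SL minus LL difference per ZT and on average, the interaction, time of day in each photoperiod, the difference in a 24 h wave, and the interaction with LL set 12 h later. The fit was also run on counts simulated with known changes and the fit's own spread. They held no outlying library, so that run cannot show how the fit treats LL ZT12 replicate 3. Exon lengths and positions came from GENCODE M21, promoters from RefSeq (GRCm38.p6). Correlations used log2(CPM + 0.1). CPM is precise to counting error only, with 9095615 to 27462776 reads a library and as few as 1 read for the lowest member.

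The alternatives were RLE size factors, DESeq2 1.42.0, no filter on low counts, limma 3.58.1 on the deposited log2 values, a replicate block, fits of 1 ZT or photoperiod alone, and leaving out each library. Members, lists and tests were chosen with earlier results of these data known. Genes named with values were, per family, those with the 5 smallest interaction p-values, the 3 smallest for time of day in each photoperiod and the 3 highest RPKM, the 3 largest called rises and falls at each ZT, every member called on the mean or with LL set 12 h later, the 5 most abundant members called nowhere, and 4 related genes by interaction p; others are named where a count or library turned on them, after their values were seen. Same-numbered replicates showed no common deviation (112 pairs of libraries, r from -0.263 to 0.243, median -0.0065), so the main fit did not pair mice by number. A small shared effect could not be detected in this way. No 2 libraries of a group agreed within sampling noise (48 pairs, smallest chi-square per degree of freedom 6.11).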

Additional observations from a re-analysis of the deposited data

Results flagged for a closer look

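In 27 of 328 groups of 4 livers, over the 41 members, 1 liver stood far from the other 3; chance alone gives about 16.4 such groups, at 5%. Of the 27, 6 were in LL ZT12 replicate 3. The low ones were Sult1d1 in SL ZT6 replicate 1 at 113 CPM, Sult1c2 in SL ZT0 replicate 1 at 18.3 CPM, Gstk1 in SL ZT0 replicate 2 at 113 CPM, Gsta3 and Sult1a1 in LL ZT6 replicate 4 at 929 and 201 CPM, Gstm4 in LL ZT18 replicate 3 at 22.3 CPM, Sult1b1 in LL ZT18 replicate 1 at 37.7 CPM, Ugt1a6a in LL ZT6 replicate 3 at 12.7 CPM, Ugt2b34 in LL ZT18 replicate 4 at 398 CPM, Ugt2b36 and Gstp3 in LL ZT0 replicate 2 at 517 and 16.4 CPM, Gstp3 in LL ZT6 replicate 2 at 26.4 CPM, Gstp2 in LL ZT6 replicate 1 at 0.0915 CPM, and Ugt3a2 and Ugt1a6b in LL ZT12 replicate 3 at 209.96 and 21.03 CPM. The high ones were Sult1d1 and Sult5a1 in SL ZT0 replicate 3 at 83.2 and 34.3 CPM, Gstm6 in SL ZT18 replicate 4 at 74.9 CPM, Sult2a8 in SL ZT12 replicate 1 at 1012 CPM, Ugt2b36 in SL ZT6 replicate 4 at 670.02 CPM, Ugt1a9 in SL ZT12 replicate 1 at 27.6 CPM, Gstk1 in SL ZT12 replicate 3 at 149 CPM, Gstm3 in LL ZT0 replicate 1 at 26.4 CPM, and Gstk1, Gstm6, Gsto1 and Gstp3 in LL ZT12 replicate 3 at 193, 90.3, 102 and 55.5 CPM.

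The difference between SL and LL itself differed between the times, by edgeR's interaction test, in 22 members. The adjusted p was 1.01e-08 for Sult1d1, 7.07e-07 for Gsta3, 1.75e-06 for Gstm4, 2.13e-05 for Gstm7, 2.52e-05 for Ugt1a6a, 3.05e-05 for Sult1a1, 5.85e-05 for Gstt2 and 0.000112 for Ugt2b5. It was 0.00171 for Ugt2b35, 0.00266 for Sult2a8, 0.00455 for Ugt1a1, 0.00478 for Gstm3, 0.00597 for Ugt2b34, 0.00685 for Gstm6, 0.00686 for Sult1c2 and 0.0074 for Ugt2a3. It was 0.0192 for Ugt1a5, 0.0202 for Ugt2b36, 0.0374 for Sult1b1, 0.0378 for Gstt1, 0.0411 for Sult2a7 and 0.0472 for Gstt3.

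The count table also held reads of family genes that the log2 table does not list. Summed over the 32 libraries, these were 6450 reads of the pseudogene Gstp-ps, 911 of the pseudogene Gstm2-ps1, 258 of Ugt1a7c, 174 of Gsto2, 160 of Gsta1, 144 of Ugt1a10 and 119 of Sult1e1, the estrogen sulfotransferase.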

How the results depend on the processing

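Under RLE size factors, limma, no filter on low counts and the replicate block, all 10 counts of called members stayed within 1.5 times the values reported (9 against 6 at ZT18 with no filter), as did those of DESeq2 but for LL set 12 h later (1 member against 0). No label says whether replicate numbers pair the mice (17 of 112 same-number pairs over 0.1, and 9 of 32 libraries closest to their own number). The replicate block gave 8, 10, 8 and 5 members at ZT0, ZT6, ZT12 and ZT18, and 21 for the interaction. It also gave 10 and 13 for time of day in SL and LL, and 23 for the 24 h rhythm. It called 0 on the mean and 0 with LL set 12 h later. Fitting only the libraries of that ZT called 2 members at ZT12 and 12 at ZT18, and fitting only SL called 18 for time of day; the cause was not tested. Leaving out each library gave 4 to 9 members at ZT0, 6 to 13 at ZT6, 3 to 11 at ZT12, 5 to 14 at ZT18, 18 to 27 for the interaction, 8 to 17 and 10 to 18 for time of day in SL and LL, 21 to 28 for the 24 h rhythm, and 0 on the mean and with LL set 12 h later. Of the 32 calls of a member at single times, 16 were kept in every such fit, and of the 22 interaction calls 17 were. No called member changed sign under these alternatives. Depth limits the 3 members below 1 CPM on average, Ugt2b37, Gstp2 and Sult2a7; the interaction call of Sult2a7 was lost in 14 of 32 such fits. Whether the 4 mice of a group were housed or processed together is not given, so p-values measure the spread between these livers alone.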
